A study of Mus musculus with 19 samples.

Results

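The 200 most abundant processed pseudogenes of mouse MII oocytes and 2cell embryos were examined. They were chosen by their mean FPKM, a count of fragments per kilobase of exon scaled to library depth, over all 19 libraries, from the 2836 genes that the deposited table marks as processed pseudogenes, out of 25891 genes in all. The levels of these pseudogenes were therefore used to choose them and are given as a description, with no test. The mean of the chosen pseudogenes ran from 726 FPKM (Gm4739) down to 22.6 FPKM (H3f3a-ps2), with a median of 50.4 FPKM, while the median over all processed pseudogenes was 0.338 FPKM.

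A processed pseudogene is a DNA copy of a messenger RNA that was reverse transcribed and inserted back into the genome. It lacks the introns of the gene it was copied from, here called its parent gene, and usually lacks that gene's promoter. A young copy still differs from the messenger RNA of its parent at few bases, and a short read from a stretch that both hold has no unique place in the genome. Oocytes and early embryos are known for active retrotransposons, and abundant housekeeping mRNAs are the most common source of such copies.

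RNA was sequenced from pools of 5 cells. The libraries came from oocytes and embryos of females labelled CPEB3-/- or CPEB3+/-, in a study of the deletion of Cpeb3 in the oocyte. CPEB3 is an RNA binding protein that acts on the polyadenylation and translation of mRNAs. There were 5 CPEB3+/- and 5 CPEB3-/- MII oocyte libraries, and 5 CPEB3+/- and 4 CPEB3-/- 2cell libraries, each given a letter from A to E in its label. The genotype named is that of the oocytes of the female. In females labelled CPEB3-/- both Cpeb3 alleles carried LoxP sites (CPEB3 LoxP/LoxP) and Cre was driven by the oocyte-specific ZP3 promoter, so the other tissues of the female were not targeted and CPEB3 protein made before the deletion can remain in the oocyte. For control females the study names CPEB3 LoxP/- with the same Cre, or CPEB3+/+, and its account of litters calls CPEB3+/- females heterozygous for the conditional knockout, which implies Cre without stating it for these libraries. All groups came from BL6 females of 6 to 10 weeks given 5 IU PMSG and, 48 h later, 5 IU hCG. Embryos were collected at 37 h after hCG, after culture of zygotes from mated females. The labels do not say that libraries came from separate females, so the p-values measure only the spread between these samples, which may be technical.

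The depth, estimated from the steps between low values, ran from 17.2 to 23.6 M fragments per library with a median of 19.8 M. It is rough, since the low values used came out as whole fragments (to 0.05) in only 41.1 to 46.1% of cases by library. A member at the limit of the choice then rests on about 183 fragments by this estimate, and 10 fragments correspond to 0.907 FPKM at the median length of the 200 pseudogenes. Cpeb3 itself was listed at 0.0450 to 0.101 FPKM in CPEB3+/- MII libraries and at 0.131 to 0.215 FPKM in those labelled CPEB3-/-. The gene level covers deleted and remaining exons alike, so it does not check the labels, and CPEB3-/- below stands for the libraries labelled so. The 12 oocyte markers were all listed, Ddx4 and Figla at no more than 0.5775 FPKM. The 12 summed to 2048 to 2138 FPKM in CPEB3+/- and 1419.9 to 1677 FPKM in CPEB3-/- MII libraries. At 2cell the sums were 1029 to 1182 and 766 to 1207 FPKM. Not all markers followed the MII sum. Dppa3 (876 to 1078 against 480 to 750 FPKM) and Mos (157 to 266 against 50.5 to 82.9 FPKM) were lower in CPEB3-/- without overlap. Ooep (216 to 310 against 238 to 381 FPKM) and Zp1 (4.52 to 6.54 against 6.29 to 8.11 FPKM) reached higher there. A list of 11 genes of the 2cell embryo summed to 41.1 to 49.1 FPKM in CPEB3+/- and 49.9 to 65.9 FPKM in CPEB3-/- MII libraries, without overlap, and to 582 to 986 and 601 to 747 FPKM at 2cell. The 11 listed cumulus and granulosa cell markers summed to at most 0.559 FPKM in MII and 1.30 FPKM in 2cell libraries. Hba-a1, the 1 listed blood marker in the table, was at up to 0.428 FPKM in MII and at 34.3 to 98.6 FPKM in 2cell libraries. What part the lower oocyte marker sum and the higher 2cell marker sum of CPEB3-/- MII libraries have in the differences given below was not tested.

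The 200 pseudogenes took 16.6 to 17.7% of the summed FPKM in CPEB3+/- MII libraries and 17.8 to 19.2% in CPEB3-/- MII libraries. They took 12.2 to 14.4% in CPEB3+/- and 11.6 to 14.0% in CPEB3-/- 2cell libraries. Together they held 77.9% of the FPKM of all processed pseudogenes, and 26 of them were among the 100 genes with the highest mean in the whole table. FPKM weights short genes up, and by fragments the share was 4.98 to 6.39% over all libraries. Fewer cells of a type and less RNA per cell cannot be told apart in these bulk samples. The 2 lowest members were Ap3m1-ps with a mean of 22.59 FPKM and H3f3a-ps2 with 22.57 FPKM, and the next 2 pseudogenes, Gm9800 and Ccdc50-ps, lay just outside at 22.41 and 22.38 FPKM. A ranking by the median in place of the mean kept 160 of the 200.

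Of the 200 pseudogenes 196 had a single annotated exon, and the median exon length was 557.5 bases (range 240 to 2704). In the GRCm38 annotation 139 lay between genes, 45 lay in an intron of another gene and 16 overlapped an exon of another gene. The intronic ones sat in a protein coding gene on the same strand in 20 cases and on the opposite strand in 19. Each pseudogene was aligned to all protein coding transcripts, and the gene with the best match was taken as its parent. A parent was found for 198, always on the same strand as the pseudogene, at a median identity of 99.35%. Identity was at least 98% for 155, or 78.3% of those matched. Among the 2567 other processed pseudogenes with a match the median identity was 94.9%, and 23.3% reached 98%. The members were divided as 123 at 99% or more, 32 at 98 to 99%, 29 at 95 to 98% and 14 under 95%, and 36 were identical to their parent over the aligned stretch. They came from 172 different parents, of which Eif1, Hmgb1 and Npm1 had 3 copies each among the 200. Another processed pseudogene of the table was at least 98% identical to 57 of them, so values of those copies are uncertain too.

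Sequences are shown for the member with the highest mean, for a member with no coding difference from its parent, and for copies of 1 parent that differ in their divergence from it. Parent sequences are coding bases of GENCODE vM21 transcripts. Pseudogene sequences were read 5′ to 3′ along the pseudogene from GRCm38, and capitals mark each base that differs from the parent. The first pair is Gm4739 (chr10:26108245-26108394, plus strand, between genes) and coding bases 457 to 606 of Hmgb2, which encodes a DNA-bending chromatin protein. Over the whole coding sequence they differed at 2 of 633 bases.
Hmgb2: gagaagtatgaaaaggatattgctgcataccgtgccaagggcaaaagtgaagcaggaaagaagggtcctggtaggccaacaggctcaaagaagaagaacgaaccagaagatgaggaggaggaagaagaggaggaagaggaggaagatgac
Gm4739: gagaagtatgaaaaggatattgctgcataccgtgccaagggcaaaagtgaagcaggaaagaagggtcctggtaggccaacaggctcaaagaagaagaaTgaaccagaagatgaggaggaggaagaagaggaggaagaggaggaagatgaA

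The second pair is Tpt1-ps3 (chr6:99878245-99878334, minus strand, between genes) and coding bases 1 to 90 of Tpt1, which encodes the translationally controlled tumour protein. No base differed over the 519 coding bases, so a read from inside this stretch fits both equally well.
Tpt1: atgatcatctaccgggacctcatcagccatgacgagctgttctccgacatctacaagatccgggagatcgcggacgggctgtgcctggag
Tpt1-ps3: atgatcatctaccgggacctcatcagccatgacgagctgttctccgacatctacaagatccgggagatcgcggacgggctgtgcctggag

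A close and a more diverged copy of 1 parent are given by coding bases 130 to 279 of Map1lc3b, which encodes an autophagosome protein. Gm6055 (chr14:48079474-48079623, minus strand, between genes) differed from Map1lc3b at 1 of 378 coding bases and Gm5612 (chr9:18427672-18427821, plus strand, between genes) at 13 of 375.
Map1lc3b: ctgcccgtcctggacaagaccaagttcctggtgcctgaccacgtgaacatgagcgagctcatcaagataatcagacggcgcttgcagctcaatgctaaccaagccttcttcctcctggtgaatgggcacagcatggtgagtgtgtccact
Gm6055: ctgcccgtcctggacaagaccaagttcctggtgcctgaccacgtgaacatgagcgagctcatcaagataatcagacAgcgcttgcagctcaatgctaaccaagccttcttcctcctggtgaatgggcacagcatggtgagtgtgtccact
Gm5612: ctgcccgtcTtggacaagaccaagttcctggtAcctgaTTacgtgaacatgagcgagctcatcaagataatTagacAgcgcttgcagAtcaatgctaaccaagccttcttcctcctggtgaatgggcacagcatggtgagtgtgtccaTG

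The member with the highest mean was a copy of the chromatin gene Hmgb2. Gm4739 (chr10:26107789-26108421) was at 969.6, 1045, 816, 848 and 1002 FPKM in CPEB3+/- and at 1257, 1109, 1214, 886 and 984 FPKM in CPEB3-/- MII libraries A to E. At 2cell it was at 349.9, 423, 418, 460.1 and 415 FPKM in CPEB3+/- and at 419, 395, 413 and 371 FPKM in CPEB3-/- libraries. Every 2cell library was thus below every MII library, and the genotypes overlapped at both stages. Its parent Hmgb2 had lower levels, with means of 118 ± 16.4 (SD, n = 5) and 57.0 ± 6.18 (SD, n = 5) FPKM in CPEB3+/- MII and 2cell libraries.

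Oaz1-ps, a copy of the gene for ornithine decarboxylase antizyme in an intron of a lincRNA gene on the same strand, had means of 387 ± 85.7 (SD, n = 5) and 547 ± 65.6 (SD, n = 5) FPKM in CPEB3+/- and CPEB3-/- MII libraries. Its 2cell means were 585 ± 96.5 (SD, n = 5) and 677 ± 153 FPKM (SD, n = 4). Snrpert, a copy of the spliceosome gene Snrpe, stayed between 393 and 660.3 FPKM over all 19 libraries. Tpt1-ps3 went the other way from Gm4739, with 251, 294, 232, 242 and 299 FPKM in CPEB3+/- MII and 577, 577, 544, 541 and 586 FPKM in CPEB3+/- 2cell libraries. All of its 2cell values lay above all of its MII values. Tpt1, identical to it in the coding part, was listed at only 13.9 and 25.9 FPKM in the same groups.

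Gm15387, a copy of the chromatin gene Hmgb1, was at 339.9, 425, 359, 371 and 474 FPKM in CPEB3+/- and at 279, 245, 266 and 246 FPKM in CPEB3-/- 2cell libraries. The groups did not overlap, while Hmgb1 itself was listed at 1.02 and 0.695 FPKM. Gm15452 is identical to the matching stretch of Cks2, a partner of cyclin-dependent kinases, and lies in an intron of Sntg1 on the same strand. Its means were 304, 254, 429.7 and 452 FPKM in CPEB3+/- MII, CPEB3-/- MII, CPEB3+/- 2cell and CPEB3-/- 2cell libraries. Rbx1-ps, a copy of a gene for a subunit of ubiquitin ligases, had means of 236, 285, 181 and 230.0 FPKM in the same order. Gm8121 (parent Immp1l) and Gm11993 (parent Polr2c, an RNA polymerase II subunit) completed the 10 highest members with Ccnb1-ps, and the group means of Gm8121 and Gm11993 lay between 225 and 379 FPKM.

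Ccnb1-ps (chr7:42105899-42107185, minus strand) is a copy of the gene for cyclin B1, which drives entry into meiotic and mitotic M phase. It was at 594, 355, 583, 499 and 374 FPKM in CPEB3+/- and at 89.7, 237, 252, 392 and 323 FPKM in CPEB3-/- MII libraries. The CPEB3-/- library A was far below all others, and library D reached into the range of the controls, so the groups overlapped. At 2cell it was at 303, 283, 258, 282 and 333 FPKM in CPEB3+/- and at 168, 175, 169 and 110.1 FPKM in CPEB3-/- libraries, without overlap.

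**Figure D1:**
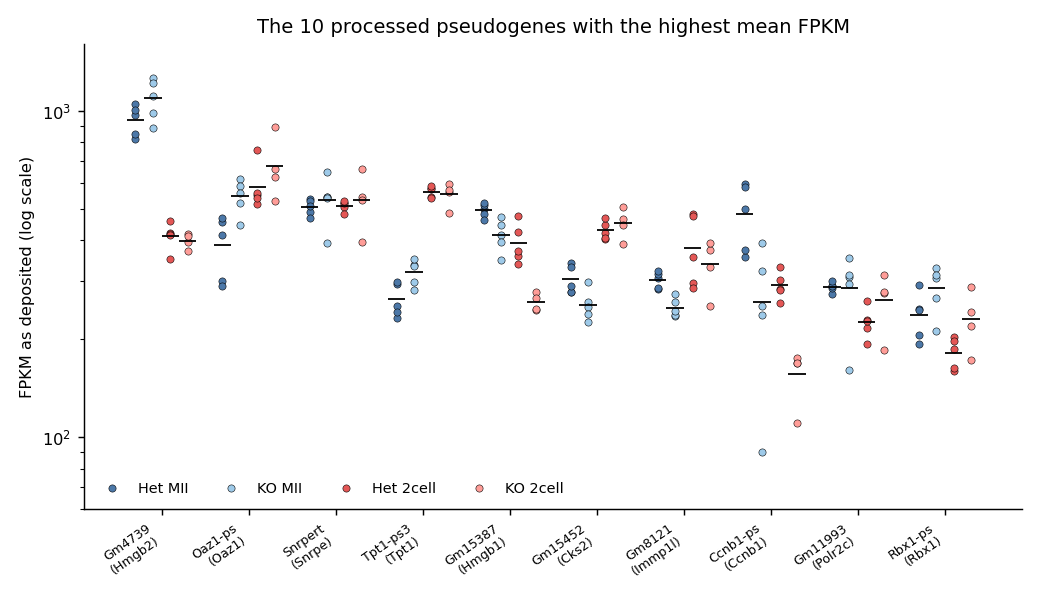
FPKM as deposited (log axis) of the 10 processed pseudogenes with the highest mean, with the parent gene in brackets; each point is 1 library, Het is CPEB3+/- and KO is CPEB3-/-, and the bar is the group mean. Gm4739 was lower and Tpt1-ps3 higher in every 2cell than in every MII library, and Ccnb1-ps was lower in every CPEB3-/- than in every CPEB3+/- 2cell library.

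For 196 members the parent was also in the table. On the FPKM scale, which is per length, the pseudogene was above its parent in all 19 libraries for 151 pairs, and the parent was above in all 19 libraries for 16. The mean of the pseudogene was above that of the parent in 177 pairs, with a median ratio of 10.8. The mean of the parent was under 1 FPKM in 29 pairs, and 13 parents were under 1 FPKM in every library. Among pairs at 99% identity or more the median of the means was 54.5 FPKM for pseudogenes and 4.57 FPKM for parents, and the pseudogene was above in all libraries in 110 of 122. At 98 to 99% the medians were 44.2 and 7.87 FPKM, and the pseudogene was above throughout in 23 of 32. At 95 to 98% the medians were 45.2 and 21.7 FPKM, and the pseudogene was above throughout in 14 of 28. Under 95% the medians were 71.9 and 5.25 FPKM, and it was above throughout in 4 of 14. How reads that fit both places were assigned is not given in the sources used here, so the level of a pseudogene with a near-identical parent is the level of reads listed there.

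Some parents were near 0 where the copy was abundant. Gm13835, identical to the aligned part of the proteasome gene Psma3, had a mean of 86.2 FPKM in CPEB3+/- 2cell libraries, where Psma3 was listed at 0.419 FPKM. Gm7336, at 99.8% identity to the glycolysis gene Gapdh, had 15.5 FPKM in CPEB3+/- MII libraries, where Gapdh was listed at 0.551 FPKM. Gm10093 had 65.4 FPKM in CPEB3+/- 2cell libraries against 1.57 FPKM for Hdac1, a histone deacetylase. The opposite order held for Gm4350 and Oog3, a gene of an oocyte-specific family, with 74.4 FPKM for the pseudogene and 801 FPKM for Oog3 in CPEB3+/- MII libraries.

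**Figure D2:**
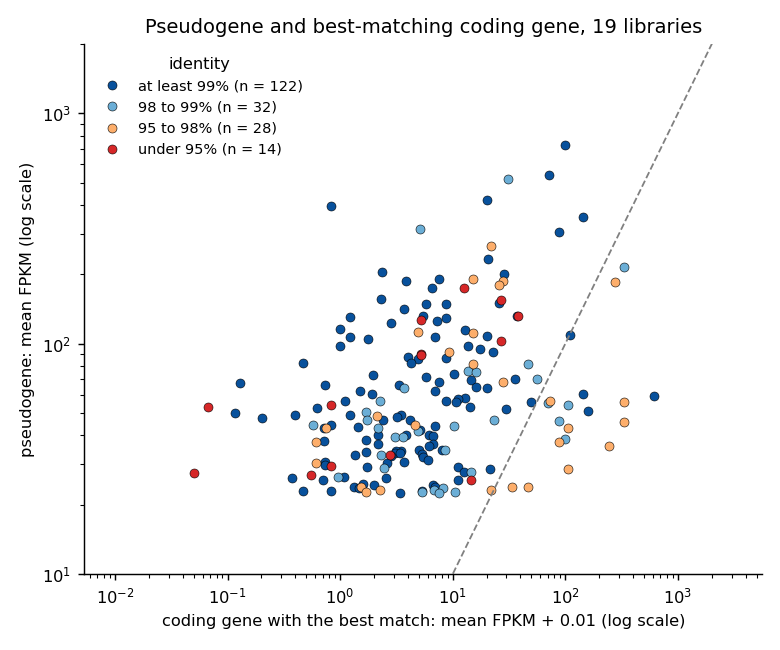
Mean FPKM over 19 libraries of each pseudogene (vertical, log axis) against that of its parent gene plus 0.01 (horizontal, log axis), 1 point per pair, coloured by identity, with a dashed line of equal values. The pseudogene lies above the line in 177 of 196 pairs.

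The change from MII oocyte to 2cell embryo was asked within each genotype. Of the 200 members 101 were higher and 54 lower at 2cell than in MII in CPEB3+/- libraries (limma, Benjamini-Hochberg adjusted p under 0.05 and more than 1.5-fold), and 87 were higher and 59 lower in CPEB3-/- libraries. These are 77.5% and 73.0% of the members, where 65.4% and 64.9% of the 15786 genes tested were called, with 43.3% and 43.6% higher and 22.0% and 21.4% lower. The choice by the mean over both stages reaches into these counts: 70 members had an MII mean and 29 a 2cell mean under the limit of the choice, and nothing is read from the counts. The median log2 fold change was 0.64 for members and 0.45 for all genes tested in CPEB3+/-, and 0.32 against 0.46 in CPEB3-/-. Both comparisons depend on the scale. When libraries were scaled to the same sum of FPKM, the members split into 70 higher and 87 lower in CPEB3+/- and 62 higher and 89 lower in CPEB3-/-, where 31.6% and 33.7% of all genes tested were higher and 37.7% and 35.4% lower, and the medians over all genes moved to -0.17 and -0.07. Without regard to a fit, 75 members were higher and 47 lower in every 2cell than in every MII library, on the values as deposited. Of all 25891 listed genes, 18.9% were higher and 10.5% lower in this way, and since the choice used the same values nothing is read from the comparison.

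There were 37 copies of cytosolic ribosomal protein genes. Of these 29 had an MII mean under the limit of the choice and so were chosen through their 2cell levels, and their sums and counts by stage are a description from which nothing is read. Their summed FPKM was 815 ± 144 in CPEB3+/- MII and 3927 ± 761 in CPEB3+/- 2cell libraries (SD, n = 5). In CPEB3-/- libraries the sum was 1165 ± 290 (SD, n = 5) in MII and 3062 ± 405 (SD, n = 4) at 2cell. At 2cell 34 passed the test upward and 3 downward in CPEB3+/-, and 31 upward and 3 downward in CPEB3-/-. When scaled to the same sum the counts were 32 and 3 in CPEB3+/- and 30 and 4 in CPEB3-/-. Rps6-ps4, identical to the aligned part of Rps6, ran from 15.6 to 27.9 FPKM in MII and from 150.5 to 251 FPKM in 2cell libraries. Rps3a2 ran from 15 to 19.99 and from 146 to 259.7 FPKM. Both copies of Rpl17 went the other way, and Rpl17-ps10 ran from 118 to 263 FPKM in MII and from 22.2 to 36.2 FPKM in 2cell libraries. Rps6-ps4, Rps3a2 and Rpl17-ps10 were picked as examples after their values were seen.

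The sums and counts by stage of the other groups of parents are a description too, since the choice used the mean over both stages. The 7 copies of chaperone genes summed to 721 ± 40.1 FPKM in CPEB3+/- MII and 586 ± 103 FPKM in CPEB3+/- 2cell libraries (SD, n = 5), and 2 rose and 4 fell with the stage in CPEB3+/-, and 2 and 5 in CPEB3-/-. The 16 copies of chromatin and nuclear protein genes summed to 2405 ± 120 and 2058 ± 175 FPKM (SD, n = 5), with 7 rises and 4 falls in either genotype, and under the same-sum scale 5 rose and 8 fell in CPEB3+/- and 3 rose and 8 fell in CPEB3-/-. The 10 copies of proteasome and ubiquitin genes summed to 859 ± 35.6 and 980 ± 117 FPKM (SD, n = 5), with 3 rises and 1 fall in CPEB3+/- and 0 rises and 2 falls in CPEB3-/-. Under the same-sum scale the falls were 6 and 5, with 0 rises, and with a GC trend removed there were 4 rises in either genotype, against 1 fall in CPEB3+/- and 2 in CPEB3-/-. All 4 copies of cell cycle and cytoskeleton genes rose in both genotypes, of which 2 were called in CPEB3+/- and 1 in CPEB3-/- under the same-sum scale. The 6 copies of translation factor genes split into 2 rises and 2 falls in CPEB3+/-, or 0 and 2 under the same-sum scale and 4 and 1 with a GC trend removed, and gave 0 rises and 2 falls in CPEB3-/-. The 4 copies of respiratory chain and ATP synthase genes gave 2 rises and 0 falls in CPEB3+/- and 1 and 0 in CPEB3-/-, or 1 and 2 in both under the same-sum scale. The 5 copies of genes of oocyte and early embryo families gave 2 rises and 0 falls in either genotype, or 2 rises with 2 falls in CPEB3+/- and 3 in CPEB3-/- under the same-sum scale. The other 107 members, whose parents fell in none of these groups, gave 45 rises and 38 falls in CPEB3+/- and 39 and 41 in CPEB3-/-, or 26 and 56 and then 23 and 57 under the same-sum scale.

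**Figure D3:**
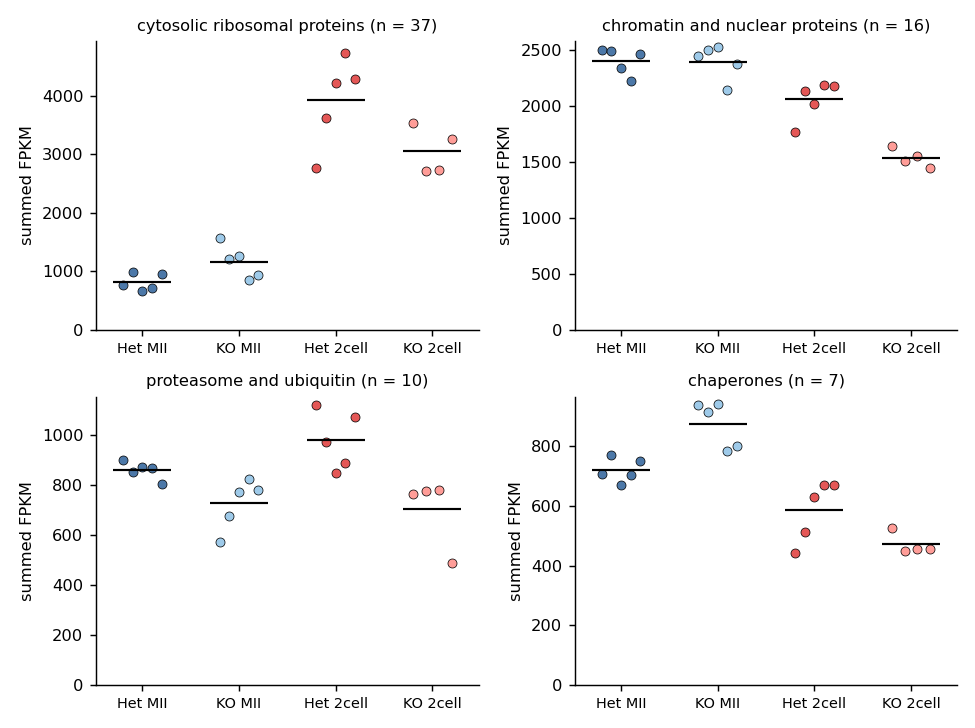
Summed FPKM as deposited of members grouped by their parent gene; each point is 1 library, Het is CPEB3+/- and KO is CPEB3-/-, and the bar is the group mean. The 37 copies of ribosomal protein genes sum to 660 to 1572 FPKM over the MII libraries and to 2716 to 4732 FPKM over the 2cell libraries.

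A set of 16 members had a mean under 1 FPKM in MII and 53.8 to 378 FPKM at 2cell, and no member showed the reverse. The 16 were chosen through their 2cell levels, since their MII means lay under the limit of the choice. Their rises are therefore a description, and nothing is read from the missing reverse. The MII values rest on few fragments, and the fitted fold changes of these members depend on the pseudocount of 0.1 and are not read as sizes. Under 95% identity to the parent were 10 of the 16, of 14 such members in all. Gm5612, the more diverged copy of Map1lc3b, was at 0.913, 0.764, 0.113, 1.04 and 0.954 FPKM in CPEB3+/- MII and at 265, 374, 491, 691 and 548 FPKM in CPEB3+/- 2cell libraries. In CPEB3-/- libraries it was at 0.350, 0.945, 0.501, 0.127 and 0.244 and 316, 272, 228 and 219 FPKM. No MII library came near the lowest 2cell library. The closer copy Gm6055 went from 6.66 ± 0.874 (SD, n = 5) to 395 ± 93.1 (SD, n = 5) FPKM in CPEB3+/- libraries, and Map1lc3b itself from 4.49 to 62.4 FPKM.

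Gm12617, Gm11517 and Gm12622 were near 0 in MII as well. Gm12617 was at 0.899, 0.251, 0.111, 0 and 0.671 FPKM in CPEB3+/- MII and at 160.0, 217, 311, 427 and 374 FPKM in CPEB3+/- 2cell libraries. Gm11517 had MII means of 0.468 and 0.318 FPKM and 2cell means of 253 and 111 FPKM in CPEB3+/- and CPEB3-/- libraries. Gm12622 had 2cell means of 215 and 156 FPKM, and 4 of its 5 values in CPEB3-/- MII libraries were above 0 but under 1e-06 FPKM, which no whole fragment can give. Values of that kind occurred in 6 members, 11 in all. Gm28645 and Gm4850, on chromosome 1 within 10 kb of each other, were at 0.0749 to 0.593 and 0.756 to 3.17 FPKM in MII, and Gm28645 was at 288, 274, 190.3, 302 and 301 FPKM in CPEB3+/- 2cell libraries. Both matched the gene model AC153137.1 best, at 91.0% and 90.9% identity.

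Gm12622 and Gm12617 mark the ends of a stretch of 132 kb on chromosome 11 (chr11:60560924-60693075) that held 16 pseudogenes, 6 processed and 10 unprocessed, of which 4 were members. This stretch was singled out after its values were seen. All 16 had MII group means of at most 1.46 FPKM, and 14 had at least 10 FPKM in both 2cell groups, up to 876 FPKM. Gm12626 and Gm12620, the other 2 members there, are copies of Pabpc4, which encodes a poly(A) binding protein, at 96.3% and 96.4% identity. Pabpc4 itself stayed at 0.656 and 0.436 FPKM in CPEB3+/- MII and 2cell libraries.

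The members with the largest falls had 2cell means far below the limit of the choice and were chosen through their MII levels, so their falls are a description. Gm1866, a copy of the phosphatase gene Acp1, was at 56.2, 70.7, 60.5, 56.4 and 65.0 FPKM in CPEB3+/- MII and at 1.89, 1.28, 1.73, 2.50 and 1.07 FPKM in CPEB3+/- 2cell libraries, a log2 fold change of -5.02. Gm14388, a second copy of Acp1 in an intron of Prkcb, changed by -4.48 in CPEB3+/- libraries. Acp1 changed by -3.17 on the log2 scale. D9Wsu149 (parent Mrpl21, a mitochondrial ribosomal protein gene) fell from 64.2 to 5.96 FPKM, Gm5900 (parent Lamtor3) from 64.6 to 6.79 FPKM, and Gm5809 (parent Tmem97) from 47.5 to 7.17 FPKM, all in CPEB3+/- libraries. Gm11847 differed from its parent. It fell from 33.8 ± 4.09 (SD, n = 5) to 2.77 ± 0.405 (SD, n = 5) FPKM in CPEB3+/- libraries, a log2 fold change of -3.43, while Hnrnpa3, the gene of a splicing factor, changed by 0.36. The best match of Gm11847 by score was Hnrnpa3, and a second coding gene, Gm6793, matched part of it at 99%.

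Between genotypes in MII oocytes, the share of members called was near that of all genes. Of 197 members tested 22 were called in CPEB3-/- against CPEB3+/- MII libraries, 14 higher and 8 lower. That is 11.2% of members, where 13.0% of 10515 genes tested were called, 5.80% higher and 7.16% lower. Among the 430 other genes at or above the level of the lowest member 22.8% were called, and among 1299 other processed pseudogenes 8.93%. The median log2 fold change was -0.02 for members and 0.02 for all genes tested. The count moved with single libraries, and so did the share of all genes called. The count was 11 without CPEB3+/- library D (9.86% of all genes). It was 13 without CPEB3+/- library A (9.39%), CPEB3+/- library C (8.95%) or CPEB3-/- library C (10.1%), and 14 without CPEB3-/- library B (10.4%). It was 30 without CPEB3-/- library D (14.6%), and 18 to 25 without any 1 of the others (10.3 to 14.1%). Scaled to the same sum of FPKM, 30 members were higher and 6 lower, where 10.6% and 4.55% of all genes tested were, and the medians of members and of all genes were both 0.15. Some members had a mean under the limit of the choice over the libraries of 1 genotype and were chosen through the other, Gstp-ps, Gm7336 and Gm5989 through CPEB3-/- and Gm5552, Rnf170-ps, Gm7327 and Gm10093 through CPEB3+/- libraries. Their differences between genotypes are given as a description, with no test.

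Gstp-ps is a copy of the glutathione transferase gene Gstp2 and lies in an intron of Traf5 on the same strand. It was at 22.1, 30.3, 20.2, 25.3 and 27.2 FPKM in CPEB3+/- and at 71.7, 85.7, 74.9, 56.1 and 61.4 FPKM in CPEB3-/- MII libraries. Every CPEB3-/- library was above every control, with a log2 fold change of 1.39. The same held at 2cell, with 18.3, 12.6, 21.2, 18.5 and 16.3 FPKM in CPEB3+/- and 48.4, 53.2, 62.3 and 40.5 FPKM in CPEB3-/- libraries and a log2 fold change of 1.56. Gstp2 itself was lower in level and changed by 1.97 and 1.75 on the log2 scale. The copy (chr1:192074291-192074410, minus strand) and coding bases 43 to 162 of Gstp2 are shown because the member and its parent moved together, with 3 differences here and 5 over 631 aligned coding bases.
Gstp2: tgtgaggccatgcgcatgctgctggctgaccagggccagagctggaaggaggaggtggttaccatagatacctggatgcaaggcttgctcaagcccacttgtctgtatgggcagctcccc
Gstp-ps: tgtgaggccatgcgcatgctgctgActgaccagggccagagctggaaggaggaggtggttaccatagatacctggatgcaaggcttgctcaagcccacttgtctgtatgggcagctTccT

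Hsp25-ps1, a copy of the small heat shock gene Hspb1 that overlaps an exon of Gm9817 on the opposite strand, was at 5.21, 10.7, 5.75, 10.1 and 6.55 FPKM in CPEB3+/- and at 22.6, 24.0, 32.0, 18.6 and 17.7 FPKM in CPEB3-/- MII libraries. The groups did not overlap, and the log2 fold change was 1.51 (SE 0.207, adjusted p = 0.00124). At 2cell the genotypes overlapped at 104 and 78.4 FPKM, with a log2 fold change of -0.39 (SE 0.274, adjusted p = 0.353). Gm6136, a copy of Rpl6, was at 4.88 and 11 FPKM in CPEB3+/- and CPEB3-/- MII libraries, with library A of CPEB3-/- at 18.3 FPKM above the others. Llph-ps2, a copy of Llph, was at 73.5 and 139.6 FPKM with a log2 fold change of 0.82 (SE 0.177, adjusted p = 0.0112), while Llph changed by 0.20 (SE 0.122, adjusted p = 0.257). Gm4850 rose in MII at low level, from 1.03 to 2.47 FPKM.

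Among the falls, Gm10232, a copy of the splicing factor gene U2af1 that lies between genes, was at 83.7, 96.9, 94.7, 84.6 and 92.8 FPKM in CPEB3+/- and at 44.6, 41.6, 57.0, 49.3 and 46.2 FPKM in CPEB3-/- MII libraries. The groups were far apart, at a log2 fold change of -1.02 (SE 0.101, adjusted p = 0.000199). At 2cell the difference was 0.01 (SE 0.192, adjusted p = 0.990) and the groups overlapped. Gm12966, a copy of the splicing factor gene Srsf5, fell from 48.5 to 29.5 FPKM in MII and from 188 to 77.5 FPKM at 2cell, with log2 fold changes of -0.82 and -1.27. Gm5552 (parent Sat1, a polyamine acetyltransferase gene) and Gm10241 (identical to the aligned part of the small ubiquitin-like modifier gene Sumo2) changed by -1.05 and -0.93 (SE 0.234, adjusted p = 0.0199) on the log2 scale.

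Gm4350, the copy of Oog3, was at 95.5, 58.9, 86.2, 68.3 and 62.9 FPKM in CPEB3+/- and at 10.8, 35.6, 27.5, 56.7 and 49.4 FPKM in CPEB3-/- MII libraries. Library A of CPEB3-/- was the lowest by far. The log2 fold change was -1.31 (SE 0.417, adjusted p = 0.0476), and it was -0.91 (adjusted p = 0.0401) without that library. Leaving out any 1 of the 5 CPEB3+/- libraries, or CPEB3-/- library B or C, lost the call, with log2 fold changes of -1.20 to -1.42 and adjusted p of 0.0527 to 0.105. The call was also lost on the same-sum scale at -1.15 (adjusted p = 0.0567) and without a filter on low values (adjusted p = 0.101). Ccnb1-ps missed the threshold in MII at -1.10 (SE 0.382, adjusted p = 0.0625) and passed it without CPEB3-/- library D at -1.30 (adjusted p = 0.0366). Library A also agreed least with the other CPEB3-/- MII libraries over all genes.

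At 2cell more members were lower than higher in CPEB3-/- libraries, and the choice reaches into this, since it used the same libraries. Of the 200 members 22 had a mean over CPEB3-/- libraries under the limit of the choice and 9 had such a mean over CPEB3+/- libraries, so the direction is a description. Of 200 members 64 were called in CPEB3-/- against CPEB3+/- libraries, 9 higher and 55 lower. That is 32.0% of members, with 4.5% higher and 27.5% lower, where 18.0% of 14051 genes tested were called, 9.47% higher and 8.53% lower. The median log2 fold change was -0.34 for members and 0.04 for all genes tested. Genes of like abundance were set beside them after the data were seen. Of the 439 other genes with a mean at or above that of the lowest member 26.7% were called, 9.34% higher and 17.3% lower, with a median of -0.16. Among 1975 other processed pseudogenes tested 13.3% were called, 3.49% higher and 9.82% lower, with a median of -0.17. The counts depended on the scale. Scaled to the same sum of FPKM, 19 members were higher and 24 lower, where 17.2% and 4.08% of all genes tested were, the median of members was -0.05 and that of all genes 0.26.

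Gm4350 had the largest fall at 2cell among members whose groups did not overlap. It was at 111, 99.7, 71.7, 84.9 and 97.9 FPKM in CPEB3+/- and at 32.7, 30.7, 24.9 and 20.3 FPKM in CPEB3-/- libraries. All CPEB3-/- libraries were below all controls, with a log2 fold change of -1.78 (SE 0.186, adjusted p = 0.00113), and Oog3 changed by -1.72 (SE 0.189, adjusted p = 0.00116). Ccnb1-ps had a log2 fold change of -0.92 (SE 0.157, adjusted p = 0.00525) and Ccnb1 one of -0.81 (SE 0.180, adjusted p = 0.0138).

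Gm6223, a copy of the membrane protein gene Tmem41b, was at 69.5, 61.4, 65.6, 96.7 and 89.4 FPKM in CPEB3+/- and at 33.3, 23.8, 21.1 and 21.8 FPKM in CPEB3-/- 2cell libraries. The lowest control was well above the highest CPEB3-/- library, at a log2 fold change of -1.61 (SE 0.175, adjusted p = 0.00113). Gm13835, the copy of Psma3, was at 62.3, 73.0, 83.2, 103 and 109.5 and 34.3, 35.6, 36.4 and 30.5 FPKM in the same groups, with a log2 fold change of -1.30 (SE 0.157, adjusted p = 0.00145). Gm7327, a copy of the cap-binding protein gene Eif4e, went from 40.6 to 16.5 FPKM at a log2 fold change of -1.30. Rnf170-ps, a copy of a ubiquitin ligase gene in an intron of Cyp2b13, went from 19.1 ± 8.97 (SD, n = 5) to 6.87 ± 1.49 FPKM (SD, n = 4), at a log2 fold change of -1.37. Rnf170 itself changed by -0.24 (SE 0.154, adjusted p = 0.305).

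The 9 higher members at 2cell included Gstp-ps and both copies of glycolysis genes. Gm7336, the copy of Gapdh, was at 20.02, 19.3, 13.7, 17.6 and 20.8 FPKM in CPEB3+/- and at 39.2, 41.9, 39.6 and 30.4 FPKM in CPEB3-/- libraries. The groups did not overlap, and the log2 fold change was 1.05, against 1.59 for Gapdh. Gm5514, a copy of the lactate dehydrogenase gene Ldhb, went from 30.2 to 51.2 FPKM at a log2 fold change of 0.76 (SE 0.155, adjusted p = 0.00960), against 0.52 (SE 0.208, adjusted p = 0.109) for Ldhb. Gm3219, identical to the aligned part of Bcl7c, went from 48.0 to 89.5 FPKM at 0.93 (SE 0.213, adjusted p = 0.0151), and with a GC trend removed at 0.46 (adjusted p = 0.116).

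Both copies of Pabpc4 on chromosome 11 were higher in CPEB3-/- 2cell libraries. Gm12620 was at 43.7, 57.8, 42.5, 45.6 and 47.8 FPKM in CPEB3+/- and at 92.2, 83.1, 78.9 and 84.7 FPKM in CPEB3-/- libraries. No library of one group reached into the other, at a log2 fold change of 0.85 (SE 0.119, adjusted p = 0.00247). Gm12626 changed by 0.69 (SE 0.133, adjusted p = 0.00809), and with a GC trend removed by 0.47 (adjusted p = 0.0328), which is under the fold threshold. The members at the ends of the same stretch were not called, with -0.29 (SE 0.247, adjusted p = 0.435) for Gm12617 and -0.43 (SE 0.201, adjusted p = 0.159) for Gm12622. Gm5989 was singled out after its values were seen, since its parent moved the other way. It was at 13.9, 25.3, 41.5, 45.5 and 23.7 FPKM in CPEB3+/- and at 102, 43.1, 92.9 and 96.5 FPKM in CPEB3-/- 2cell libraries, so library B of CPEB3-/- lay inside the range of the controls. Its log2 fold change was 1.53, while Crnkl1, a splicing factor gene at 89.5% identity, changed by -0.60 (SE 0.142, adjusted p = 0.0179).

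By group of parent, 7 of 16 copies of chromatin and nuclear protein genes were lower at 2cell and 0 higher, with a median log2 fold change of -0.56, and all 7 calls were lost under the same-sum scale (median -0.27). These counts, like the others by group, stand beside 8.53% of all genes tested that were lower and 9.47% that were higher. Of 10 copies of proteasome and ubiquitin genes 4 were lower and 0 higher (median -0.52), or 2 under the same-sum scale. Of 37 copies of ribosomal protein genes 3 were lower and 0 higher (median -0.29), with 1 lower under the same-sum scale (median -0.003) and 9 lower with a GC trend removed (median -0.48). In MII 3 of them were higher and 0 lower (median 0.38), or 7 higher under the same-sum scale and 2 with a GC trend removed, where 5.80% of all genes tested were higher in MII, or 10.6% under the same-sum scale. Among the 5 copies of oocyte and early embryo genes 2 were higher and 3 lower under either scale, or 1 and 3 with a GC trend removed. The 2 higher ones were the copies of Pabpc4, and Gm4350 and Ccnb1-ps were among the lower. Of the 6 copies of translation factor genes 2 were lower, of the 4 of respiratory chain genes 1, of the 4 of cell cycle genes 2 and of the 7 of chaperone genes 1, and none of these groups had a higher member. Under the same-sum scale the lower members of these groups were 1, 0, 2 and 1 in the same order, and 1 copy of a chaperone gene was higher. With a GC trend removed 1 of the 7 copies of chaperone genes was higher and 2 were lower. The other 107 members gave 5 higher and 32 lower, or 14 and 14 under the same-sum scale.

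**Figure D4:**
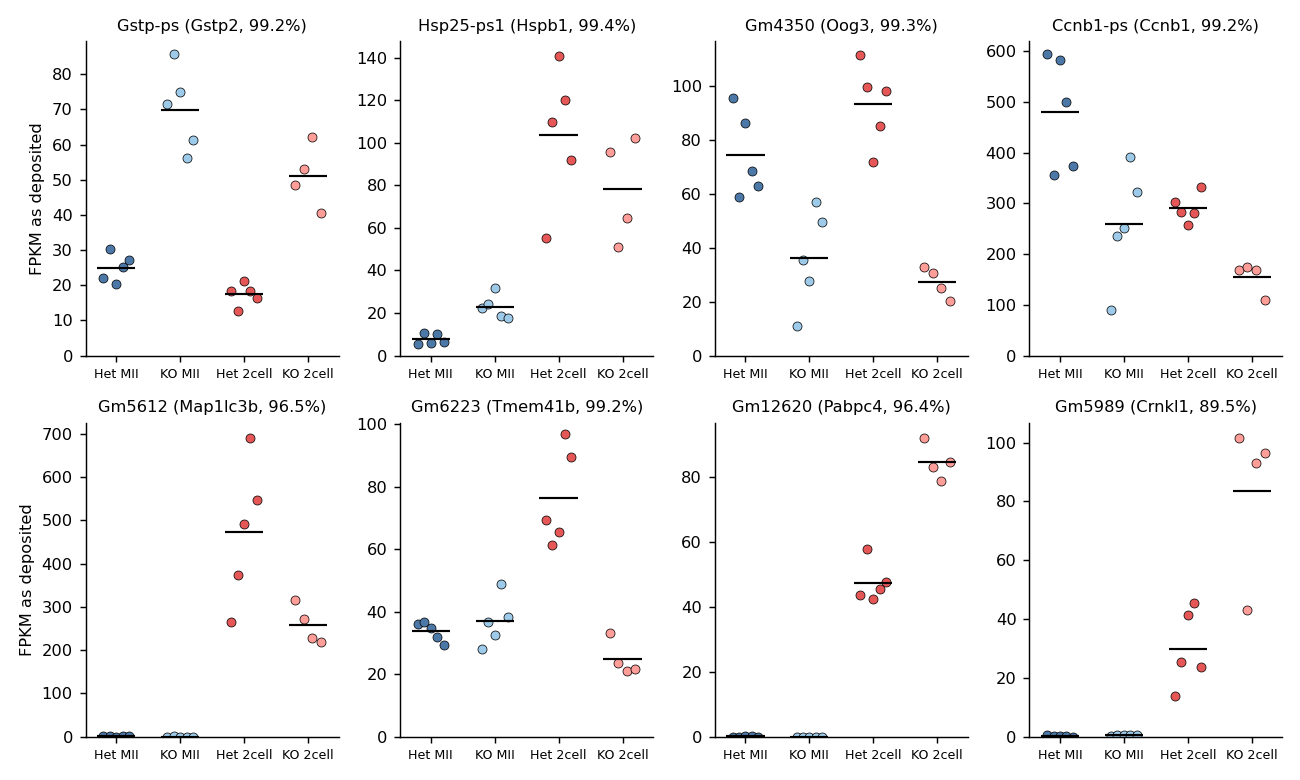
FPKM as deposited (axes from 0) of 8 members by library, with the parent gene and identity in brackets; Het is CPEB3+/-, KO is CPEB3-/-, and the bar is the group mean. Gstp-ps is higher in every CPEB3-/- library of its stage, Gm4350 is lower, and Gm5612, Gm12620 and Gm5989 lie near 0 in MII libraries.

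Differences between genotypes were also set beside those of the parents. Across pairs in which both were tested the log2 fold changes had a Pearson r of 0.74 in MII (n = 187) and 0.73 at 2cell (n = 194). The pairs come from the same libraries, and their reads may be exchanged, so this is a description. At 99% identity or more r was 0.81 in MII (n = 119) and 0.80 at 2cell (n = 122). At 98 to 99% it was 0.83 (n = 32) and 0.89 (n = 32), and at 95 to 98% it was 0.83 (n = 27) and 0.84 (n = 28). Under 95% it was -0.48 (n = 9) and -0.03 (n = 12). These few pairs hold members near 0 in MII, and some share a parent. Of the 20 members called in MII with a parent tested 11 had a parent called in the same direction, and of the 63 at 2cell 28 did. Over all pairs the parent was called in 26 of 187 in MII and in 40 of 194 at 2cell. The parent was called in the opposite direction for 0 of the called members in MII and for 1 at 2cell, Gm5989. These counts are a description too, since they hold members chosen through 1 genotype, Gm5989 among them. For the change with stage in CPEB3+/- the parent was called in the same direction for 120 of 152 members and in the opposite direction for 4. In this comparison 136 of all 194 parents were called, and 65.4% of all genes tested, so nothing is read from these counts.

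**Figure D5:**
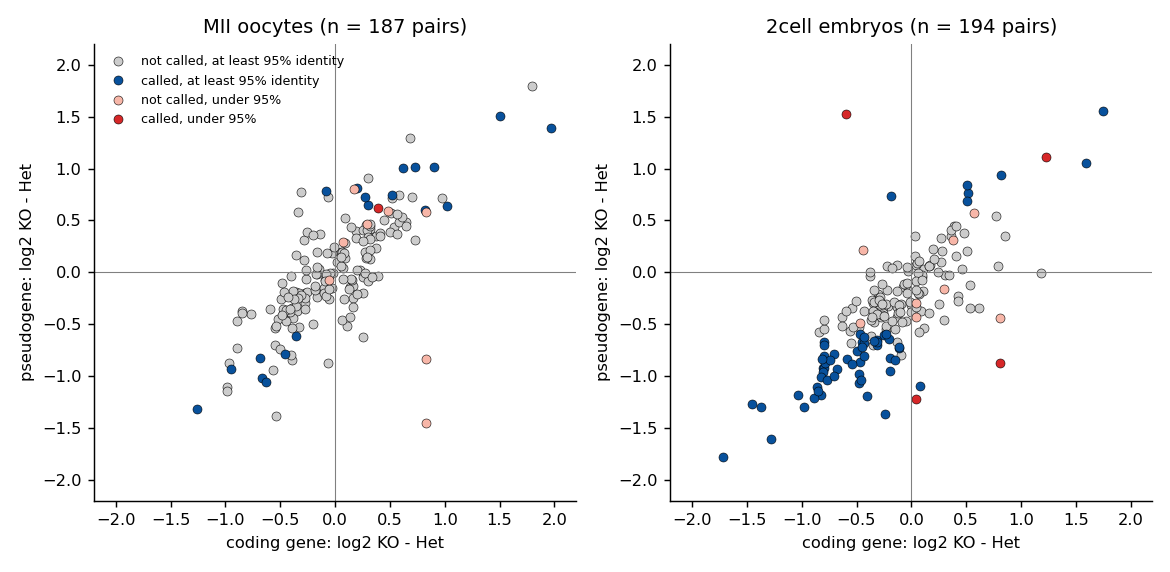
Log2 fold change of CPEB3-/- (KO) against CPEB3+/- (Het) of each pseudogene (vertical) against that of its parent (horizontal), in MII oocytes (187 pairs) and 2cell embryos (194 pairs); blue and red points are called pseudogenes. Over all pairs r is 0.74 in MII and 0.73 at 2cell. Over the pairs under 95% identity (red shades) it is -0.48 (n = 9) and -0.03 (n = 12), and in each class of higher identity it is 0.80 to 0.89.

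Whether the change with stage differed between genotypes was tested as an interaction in the fit of all libraries. Of 200 members 33 were called (16.5%), 3 with a higher and 30 with a lower change in CPEB3-/-, where 7.87% of 15786 genes were called, 3.79% with a higher and 4.08% with a lower change. The choice used the mean over these same libraries, so the counts and their direction are a description. The median was -0.29 for members and 0.03 for all genes tested. Scaled to the same sum of FPKM, 5 members had a higher and 23 a lower change, where 5.08% and 2.65% of all genes tested did, and the medians were -0.15 and 0.12. Among the 439 other genes at or above the level of the lowest member 12.8% were called, with a median of -0.02. Among 2261 other processed pseudogenes 5.88% were called, 1.68% with a higher and 4.20% with a lower change, with a median of -0.23. Hsp25-ps1 had the largest difference, -1.92, from a log2 change with stage of 3.87 in CPEB3+/- and 1.95 in CPEB3-/- libraries. Its MII mean was under the limit of the choice, so this value is a description, with no test. Gm6223 changed by 1.29 on the log2 scale in CPEB3+/- and by -0.36 in CPEB3-/- libraries, an interaction of -1.65 (SE 0.251, adjusted p = 0.000675).

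Rps24-ps3, a copy of Rps24, was at 37.8, 59.7, 66.7, 67.4 and 49.4 FPKM in CPEB3+/- and at 28.8, 25.5, 30.4 and 39.2 FPKM in CPEB3-/- 2cell libraries, which overlapped, while in MII its means were 16.5 and 30.2 FPKM. Its interaction was -1.58 (SE 0.347, adjusted p = 0.00939). Gm10093, the copy of Hdac1, had MII means of 2.46 and 3.80 FPKM and 2cell means of 65.4 and 31.7 FPKM in CPEB3+/- and CPEB3-/- libraries. Its interaction was -1.57, and that of Hdac1 was -0.62 (SE 0.172, adjusted p = 0.0328). Gm4850 had an interaction of -1.59 that rests on MII values near 1 to 3 FPKM. It was chosen through its 2cell levels, so this value is a description, with no test. Of the 37 copies of ribosomal protein genes 7 were among the 30 with a lower change, or 3 under the same-sum scale.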

How the data were processed

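RNA-seq libraries were made from pools of 5 cells. The authors trimmed reads with Trim Galore, aligned them to GRCm38 with HISAT2 and quantified FPKM in SeqMonk, per the methods. The deposited table is named as raw counts, but its values are not whole, and it was read as FPKM. The methods speak of quadruplicates and the labels give 4 or 5 libraries a group, all of which were used. The treatment of reads with several places, strand and annotation release are not given in the sources used here. No counts were used here, so counting error is not known exactly.

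FPKM values were divided by a factor for each library. The factor was the trimmed mean (30% trimmed on each side) of log ratios to the mean of the libraries, over genes above 0.1 FPKM in all. Then 0.1 was added, and the values were put on the log2 scale and tested with limma 3.58.1 in R 4.3.3 with an intensity trend. MII and 2cell libraries were fitted separately for genotype, and all 19 together for stage and interaction. A gene needed 0.1 FPKM in at least 5 MII or 4 2cell libraries. P-values were adjusted by Benjamini-Hochberg over all genes tested, and a gene was called at an adjusted p under 0.05 and over 1.5-fold.

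Parents were found with blastn (BLAST+ 2.17.0, e-value 1e-10) against protein coding transcripts of GENCODE vM21, which gave 198 of 200 members. The members, groups of parents and lists were chosen with earlier results of these data known. The text names the 10 highest members, the 5 largest changes each way among called members without overlap (5 largest for the interaction), those at the limit, and their parents. For a few members, the parent is not reported here.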

Additional observations from a re-analysis of the deposited data

Results flagged for a closer look

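In 43 named members the 4 groups give 172 sets of 4 or 5 libraries, and in 11 of them 1 library stood far from the rest by Dixon's test, which chance gives in about 1 of 20. Oaz1-ps was at 756 FPKM in CPEB3+/- 2cell library C, where the others were at 519 to 559.5 FPKM. Ccnb1-ps was at 110.1 FPKM in CPEB3-/- 2cell library D, against 168 to 175 FPKM. Gm6136 was at 18.3 FPKM in CPEB3-/- MII library A, against 8.45 to 11 FPKM, and Gm5809 was at 102 FPKM in the same library, against 62.1 to 69.8 FPKM. Gm28645 was at 190.3 FPKM in CPEB3+/- 2cell library C, against 274 to 302 FPKM.

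The other 6 were at low levels. In CPEB3+/- 2cell libraries, Gm11847 was at 3.49 FPKM in library A (others 2.50 to 2.69), Gm5900 at 11 FPKM in library B (5.38 to 6.70) and D9Wsu149 at 8.04 FPKM in library E (5.09 to 5.88). In MII libraries, Gm12620 was at 0.163 FPKM in CPEB3+/- library C (0.0831 to 0.0984), Gm11517 at 0.882 FPKM in CPEB3-/- library B (0 to 0.246) and Gm12622 at 0.515 FPKM in CPEB3-/- library C, where the others were under 1e-06 FPKM.

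The change with stage differed between genotypes most in Hsp25-ps1 (-1.92 on the log2 scale), Gm6223 (-1.65), Gm4850 (-1.59), Rps24-ps3 (-1.58) and Gm10093 (-1.57), all by the interaction term in limma and all with a lower change in CPEB3-/- libraries. The values of Hsp25-ps1, Gm4850 and Gm10093 are a description, since their MII means were under the limit of the choice. For Gm10093 the mean over CPEB3-/- libraries was under it too.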

How the results depend on the processing

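Between genotypes in MII 22 members were called, where 13.0% of all genes tested were. The count was 36 when libraries were scaled to the same sum of FPKM, where 15.1% of all genes were called. It was 46 without the fold threshold (21.5% of all genes), 13 without the filter on low values (4.62%) and 13 with the replicate letter as a block (7.93%). When 1 library was left out it ran from 11 to 30, and the share of all genes from 8.95 to 14.6%. At 2cell 64 members were called, 15 with the replicate block and 51 to 69 when 1 library was left out. The shares of all genes tested were 18.0%, 2.80% and 13.1 to 18.6% in the same order. The letters do not pair the libraries: same-letter libraries deviated together with correlations of -0.149 to 0.0970, so the block result is given here only, and a call lost under it is not a weaker effect. With 1 library left out the counts ran from 151 to 156 and from 144 to 146 for the stage in CPEB3+/- and CPEB3-/-, and from 30 to 44 for the interaction. The shares of all genes tested ran from 64.5 to 66.4%, from 63.7 to 65.6% and from 5.88 to 9.99% in the same order. Over 45 pairs of a named member and a comparison, 794 settings kept the call and 16 lost it, 10 of them for Gm4350 in MII, and 0 changed direction. Alternatives that compared members with other genes at their level, and those that left out single libraries for named members, were added after seeing the data. Depth, at 17.2 to 23.6 M fragments, limits members near 0 in MII.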
